A study of Homo sapiens with 2 samples.

Results

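Axon guidance genes encode the cues that steer growing nerve fibres and the receptors that read them. The genes described here were chosen by symbol from the array's platform annotation: the EPHA, EPHB, EFNA, EFNB, SEMA, PLXN, ROBO, NTN, SLIT, NTNG, NRP, SRGAP, CNTN and UNC5 families, plus DCC, NEO1, L1CAM, CHL1 and NRCAM. They came to 61 of 14812 named genes, all 61 protein coding. No probe set carried the name of a semaphorin or of a Robo receptor in the annotation used, so these families were not analysed here. UNC50 and UNC5CL matched the symbols but are not netrin receptors, since UNC50 is a Golgi protein and UNC5CL a death-domain protein related to UNC5C. They are counted among the 61, but in no role.

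The cells were BE(2)C, a human neuroblastoma line in which the MYCN gene is amplified, in both groups. One culture received a siRNA against MYCN (MYCN2, from Qiagen) and the other non-targeting ON-TARGETplus siRNA from Dharmacon, both with Lipofectamine 2000, and RNA was taken at 36 hours. With a single Affymetrix Human Gene 2.0 ST array behind each group there are no replicates and no p-values, and precision is limited by that number of arrays. All values are the authors' log2 values after RMA, and each difference is MYCN siRNA minus control siRNA. The groups also differ in the supplier of the siRNA, and that cannot be told apart from the targeting of MYCN.

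As background, ephrins are membrane-bound ligands of the Eph receptor tyrosine kinases, and contact between cells carrying them usually repels. Netrins attract growth cones through DCC and its relative neogenin and repel them through UNC5 receptors, while slits repel through Robo receptors, with srGAPs acting on the cytoskeleton inside the cell. Plexins, with neuropilins as co-receptors, read semaphorins, and contactins and the L1 family are adhesion molecules that often sit in the same membrane complexes. In the sympathetic lineage from which neuroblastoma arises, such cues guide migrating neural crest cells and the axons of sympathetic neurons.

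A gene counted as measured when at least 1 array placed it no lower than that array's median probe set (4.60 with control siRNA, 4.55 with MYCN siRNA). This kept 45 of the 61 genes, 44 of them in both arrays, with NTN4 the exception. The other 16 were CHL1, CNTN3, CNTN5, CNTN6, DCC, EFNA4, EPHA3, EPHA5, EPHA6, EPHA7, EPHA10, EPHB1, NTN5, PLXNC1, SLIT2 and UNC5D. The differences of these dim genes ran from −0.38 in SLIT2 to 0.36 in EPHB1. No spread between samples can be had, and the one available yardstick comes from pairs of probe sets of the same gene. It is the SD of a single probe set's difference, 0.31, worked out from such pairs in 374 protein-coding genes. The gap between the probe sets of a pair spreads more widely than this. Another 21 genes whose paired probe sets had identical values were left out. This SD leaves out the spread between cultures and between arrays. The 1.5-fold mark, 0.58 on the log2 scale, is 1.87 times this SD.

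More guidance genes were higher than lower in the MYCN siRNA array past that mark. Of the 45 measured genes, 8 (17.8%) were at least 1.5-fold higher, against 8.81% of all 10592 measured genes. CNTN4 alone (2.22%) was at least 1.5-fold lower, against 5.79% of all measured genes. PLXNB3, EFNB1 and NEO1 were at least 2-fold higher, against 2.21% of all measured genes, and none was 2-fold lower, against 1.16%. With an offset of 16 on the linear scale, which shrinks differences of dim genes most, only PLXNB3 stayed past 2-fold. EFNB1, a brighter gene, fell just short at 0.998, and NEO1 fell to 0.79. Counted by sign alone, 25 of the 45 (55.6%) were higher, against 50.9% of all measured genes. The median difference of the 45 was 0.07, against 0.01 over all measured genes, so the group as a whole lay close to the rest. The 8 higher genes were 5 receptors or co-receptors (PLXNB3, NEO1, PLXNA3, EPHB3 and NRP1), 1 ligand (EFNB1), 1 effector (SRGAP3) and 1 adhesion molecule (L1CAM). The next highest difference was that of PLXNB2 at 0.42, below the mark, and SRGAP3 at 0.68 was the nearest past it.

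**Figure D1:**
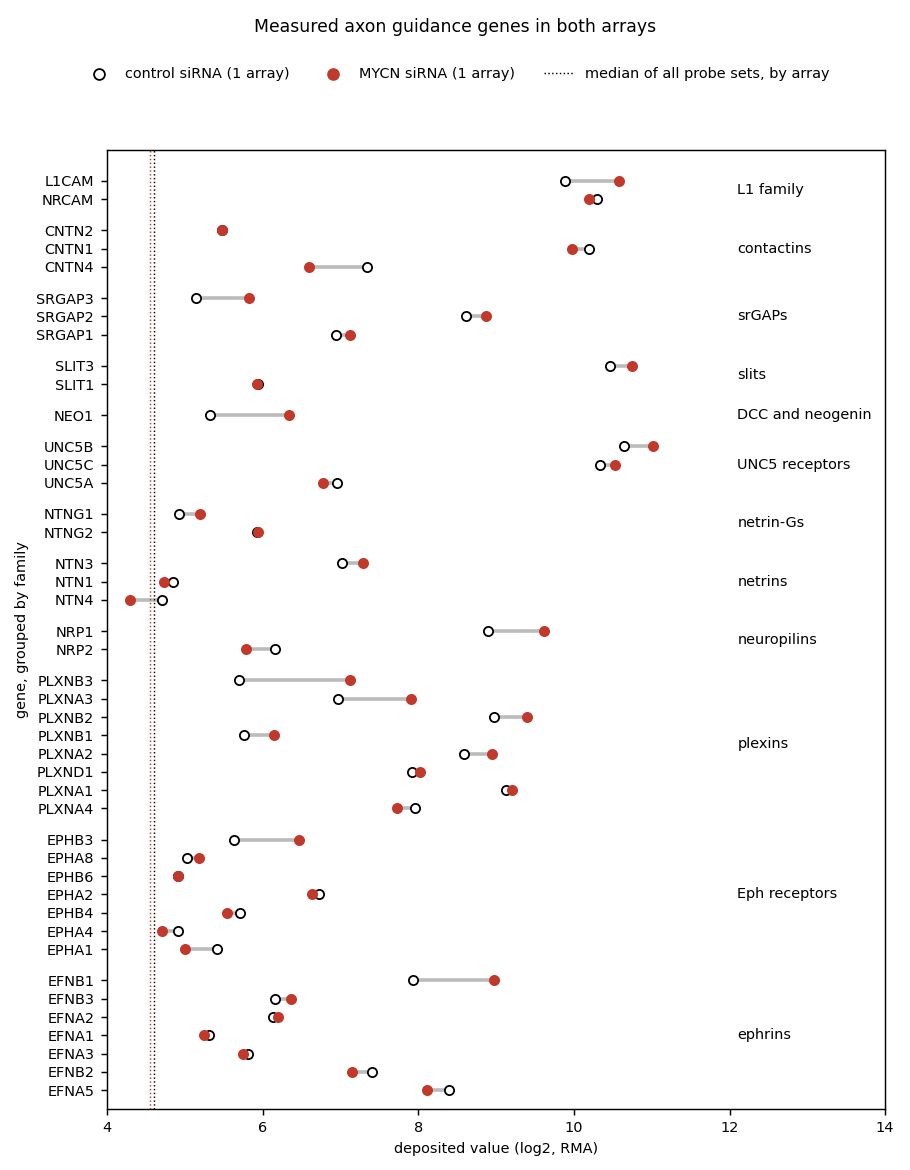
Deposited log2 value (horizontal axis) of the measured genes other than UNC50 and UNC5CL (vertical axis, grouped by family) in the control siRNA array (open points) and the MYCN siRNA array (filled points), 1 array each, with the array medians as dotted lines; levels are not comparable between genes. The longest bars to the right are PLXNB3 (5.70 to 7.13), EFNB1 (7.93 to 8.97) and NEO1 (5.33 to 6.34), and the longest to the left is CNTN4 (7.34 to 6.60).

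The start regions of these genes were searched for the E-box CACGTG, the canonical binding sequence of MYC-family proteins and its own reverse complement. RefSeq windows of 300 bases (250 before and 50 after a start, GRCh38.p14) matched 53 of the 61 genes, with 71 windows in all. EFNB3, EPHA10, NRP1, NTN1, NTN3, NTNG2, UNC5B and UNC5D had none in the table. CACGTG stood in 2 of the 71 windows (2.82%), those of CNTN3 and EPHA8, against 7.26% of all 35116 windows and 8.34% of the 22198 at protein-coding genes. None of the 8 windows of the higher genes (7 of them, since NRP1 had no window) and neither of the 2 windows of CNTN4 held it. The variant CACGCG, searched on both strands with overlapping matches counted once, was added after the values were seen. It stood in 13 of the 71 windows (18.3%), against 14.2% at protein-coding genes, and again in none of the 8 windows at the higher genes. A match or its absence says only which letters these windows hold. The windows of the 3 genes that were at least 2-fold higher, and that of EPHA8, the 1 measured gene with CACGTG, are shown so that they can be compared. Lower case is used throughout, and capitals mark CACGTG and its variant. In EPHA8 the CACGTG begins at −149 from the start and 2 variant matches follow near the start. The windows lie at chrX:153763999-153764298 for PLXNB3, chrX:68828771-68829070 for EFNB1, chr15:73051652-73051951 for NEO1 and chr1:22563239-22563538 for EPHA8, all on the plus strand.
PLXNB3: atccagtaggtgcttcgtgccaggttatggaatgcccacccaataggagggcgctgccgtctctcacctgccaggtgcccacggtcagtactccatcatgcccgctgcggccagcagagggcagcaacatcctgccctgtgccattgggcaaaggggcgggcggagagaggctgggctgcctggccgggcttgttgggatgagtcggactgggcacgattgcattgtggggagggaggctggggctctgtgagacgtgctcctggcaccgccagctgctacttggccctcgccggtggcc
EFNB1: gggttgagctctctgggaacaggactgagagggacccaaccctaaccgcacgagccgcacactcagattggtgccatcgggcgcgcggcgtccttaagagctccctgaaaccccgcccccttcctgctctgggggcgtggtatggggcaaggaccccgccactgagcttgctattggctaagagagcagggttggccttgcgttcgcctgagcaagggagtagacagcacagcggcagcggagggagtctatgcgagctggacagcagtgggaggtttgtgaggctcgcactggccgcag
NEO1: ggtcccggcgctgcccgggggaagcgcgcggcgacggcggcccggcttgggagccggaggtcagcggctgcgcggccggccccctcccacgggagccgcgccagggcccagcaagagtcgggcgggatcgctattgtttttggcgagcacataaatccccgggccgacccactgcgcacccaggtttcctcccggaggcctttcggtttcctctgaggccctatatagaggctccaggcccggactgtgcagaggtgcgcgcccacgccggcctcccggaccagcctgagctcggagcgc
EPHA8: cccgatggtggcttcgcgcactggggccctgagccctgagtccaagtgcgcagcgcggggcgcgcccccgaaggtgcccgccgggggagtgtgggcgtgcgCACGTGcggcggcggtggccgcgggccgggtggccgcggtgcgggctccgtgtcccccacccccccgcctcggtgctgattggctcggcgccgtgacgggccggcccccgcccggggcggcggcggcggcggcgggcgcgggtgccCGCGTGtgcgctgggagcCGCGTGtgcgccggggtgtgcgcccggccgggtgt

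Ligands and receptors were compared by their median differences. The 14 measured ligands (ephrins, slits, netrins and netrin-Gs) had a median of −0.00, with 7 higher and 7 lower and a range from −0.41 in NTN4 to 1.04 in EFNB1. The 21 measured receptors had a median of 0.15, with 13 higher, 7 lower and 1 equal, and a range from −0.41 in EPHA1 to 1.43 in PLXNB3. The ligand median lay 0.16 below the receptor median, which is less than the interquartile range within either role (0.36 and 0.59). One ligand of 14 (7.14%) and 5 receptors of 21 (23.8%) were at least 1.5-fold higher, against 8.81% of all measured genes, so the ligand share lay near that of the whole table. The roles overlapped: 1 receptor, PLXNB3, lay above the highest ligand, and 5 ligands lay above the receptor median. The receptors were themselves split by family. Without the Eph receptors, 11 of the other 14 were higher and their median was 0.37, while the 7 measured Eph receptors had a median of −0.09. Of all measured genes 50.9% were higher. With the contactins and the L1 family counted as receptors, the receptor median was 0.09. Semaphorins, a large family of guidance ligands, are missing from this comparison, so plexins and neuropilins enter it without their ligands. The gap between the roles thus sets unmatched families side by side. Between ephrins and Eph receptors alone, the medians were −0.06 for the ligands and −0.09 for the receptors.

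**Figure D2:**
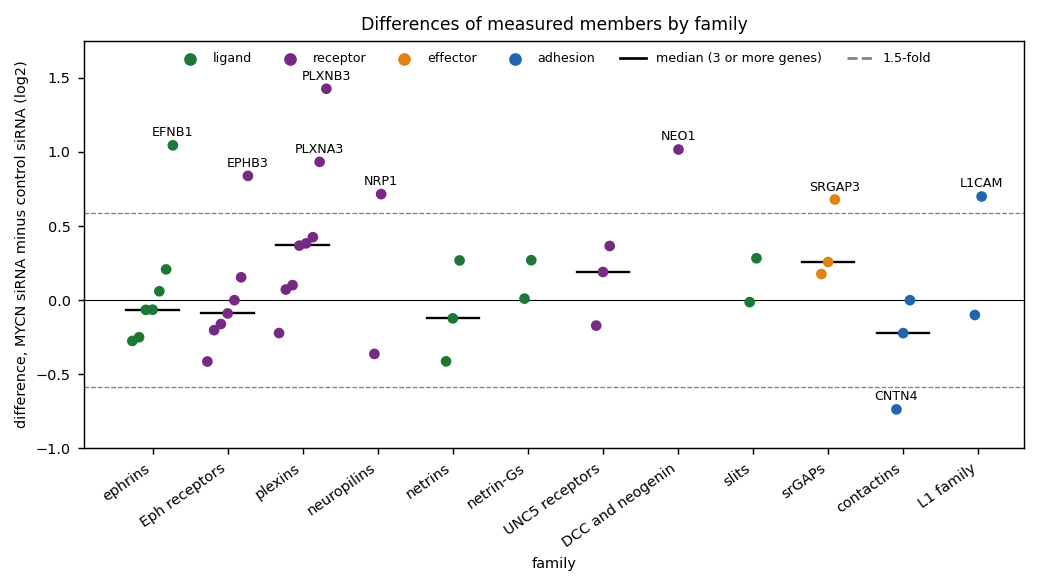
Difference of each measured gene (MYCN siRNA minus control siRNA, log2, vertical axis) by family (horizontal axis), coloured by role, with a bar at the median of families of 3 or more genes and dashed lines at 1.5-fold. The plexins lie mostly above 0 (median 0.38), while the ephrins and Eph receptors centre just below 0 (medians −0.06 and −0.09) with EFNB1 and EPHB3 standing apart.

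The plexins, the signalling receptors of semaphorins, were the family with the most genes above the control. Of 8 measured plexins, 7 (87.5%) were higher, against 50.9% of all measured genes, with a median of 0.38. PLXNB3, the B-type plexin that binds SEMA5A, was at 5.70 with control siRNA and 7.13 with MYCN siRNA, a difference of 1.43 or 2.69-fold. PLXNA3, a partner of neuropilins in semaphorin reception, went from 6.97 to 7.90, a difference of 0.93 or 1.91-fold. Both differences are larger than the probe-set SD. The other B-type plexins, receptors of class 4 semaphorins, were higher by less: PLXNB2 was at 8.97 and 9.39 (0.42), and PLXNB1 at 5.76 and 6.14 (0.38). PLXNA2 was at 8.58 and 8.95 (0.37). PLXND1, which also guides blood vessels, was at 7.92 and 8.02 (0.10) and PLXNA1 at 9.13 and 9.20 (0.07), both differences within the probe-set SD. PLXNA4, at 7.95 and 7.73 (−0.22), was the one measured plexin below the control. PLXNC1 was under the median in both arrays.

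The 2 neuropilins, co-receptors that bind class 3 semaphorins and VEGF, went opposite ways. NRP1 was at 8.90 with control siRNA and 9.61 with MYCN siRNA, a difference of 0.72 or 1.64-fold. NRP2 was at 6.16 and 5.79, a difference of −0.36 that does not reach the 1.5-fold mark. Each rests on 1 probe set.

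Ephrins differed little except for 1 gene. EFNB1, a transmembrane ephrin that also signals into its own cell, was at 7.93 with control siRNA and 8.97 with MYCN siRNA, a difference of 1.04 or 2.06-fold. The other 6 measured ephrins lay between −0.28 and 0.21, all inside the probe-set SD. Among the GPI-anchored A-type ephrins, EFNA5 was at 8.39 and 8.12 (−0.28), EFNA1 at 5.32 and 5.25 (−0.06), EFNA3 at 5.82 and 5.75 (−0.07) and EFNA2 at 6.14 and 6.20 (0.06). Of the other B-type ephrins, EFNB2 was at 7.41 and 7.16 (−0.25) and EFNB3 at 6.16 and 6.37 (0.21). EFNB1 was thus the only measured ephrin past 1.5-fold.

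Among the Eph receptors, 2 of 7 measured genes were higher, 4 lower and 1 equal. EPHB3, a receptor for B-type ephrins, was at 5.63 with control siRNA and 6.47 with MYCN siRNA, a difference of 0.84 or 1.79-fold. EPHA8 was at 5.02 and 5.18 (0.15). EPHB6, which lacks kinase activity, held the same value, 4.92, in both arrays. Exactly equal values occurred in 4.02% of all probe sets and 1.16% of measured genes, and CNTN2 was another case, and whether this comes from the processing was not tested. EPHA2 was at 6.72 and 6.63 (−0.09), EPHB4, the receptor of EFNB2 in veins, at 5.71 and 5.55 (−0.16), and EPHA4 at 4.91 and 4.71 (−0.20). EPHA1, the lowest of the family, was at 5.41 and 5.0 (−0.41). The other Eph receptors in the table were not measured, so the family is seen only in part.

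In the netrin system receptors and ligands each held genes above and below the control. NEO1, neogenin, a receptor for netrins and for repulsive guidance molecules, was at 5.33 with control siRNA and 6.34 with MYCN siRNA, a difference of 1.02 or 2.03-fold. With the offset of 16 its difference was 0.79. DCC, the classical netrin receptor, was below the median in both arrays, at 3.84 and 4.07. UNC5B was at 10.6 and 11.0 (0.37), UNC5C at 10.3 and 10.5 (0.19), and UNC5A at 6.95 and 6.78 (−0.17). UNC5D was not measured. All 3 measured UNC5 receptors are dependence receptors, which can trigger cell death when no netrin is bound, and none reached 1.5-fold. Of the secreted netrins, NTN3 was at 7.02 and 7.29 (0.27), NTN1 at 4.85 and 4.73 (−0.12) and NTN4, a netrin of basement membranes, at 4.71 and 4.29 (−0.41). NTN1 and NTN4 lay close to the array medians, where signal and background cannot be separated. Other measured genes were not far above the medians either, such as EPHA4, EPHB6, EPHA8 and NTNG1. The netrin-Gs, membrane-anchored relatives that bind LRRC4-family proteins at synapses instead of DCC, were NTNG1, at 4.92 and 5.19 (0.27), and NTNG2, at 5.93 and 5.94 (0.01). UNC5CL and UNC50, outside the pathway, had differences of −0.36 and 0.08.

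Of the slits, SLIT3 was at 10.5 with control siRNA and 10.8 with MYCN siRNA (0.28), SLIT1 at 5.94 and 5.93 (−0.01), and SLIT2 was not measured. The 3 srGAPs, which bend membranes and act downstream of Robo, were all higher, as were 50.9% of all measured genes. Only SRGAP3 differed by more than the probe-set SD. SRGAP3 was at 5.14 and 5.82, a difference of 0.68 or 1.60-fold, which was 0.50, short of the 1.5-fold mark, with the offset of 16. SRGAP2 was at 8.61 and 8.87 (0.26), and because the human genome holds partial copies of SRGAP2 with near-identical sequence its value is uncertain. SRGAP1 was the only gene of the 61 with 2 probe sets, and these had the same direction, with differences of 0.22 and 0.13. The first went from 8.58 to 8.80 and the second from 5.31 to 5.44.

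The adhesion molecules held both the lowest guidance gene and 1 of the 8 higher ones. CNTN4, a contactin linked to olfactory and visual wiring, was at 7.34 with control siRNA and 6.60 with MYCN siRNA, a difference of −0.74 or 1.67-fold lower. CNTN1, a partner of CNTNAP1 beside the nodes of myelinated axons, was at 10.2 and 9.97 (−0.22), and CNTN2 held 5.48 in both arrays. No measured contactin was higher. L1CAM, the founding member of the L1 family and a co-receptor of NRP1 in semaphorin reception, was at 9.88 and 10.6, a difference of 0.70 or 1.62-fold. NRCAM, a close relative, was at 10.3 and 10.2 (−0.10), well inside the probe-set SD.

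**Figure D3:**
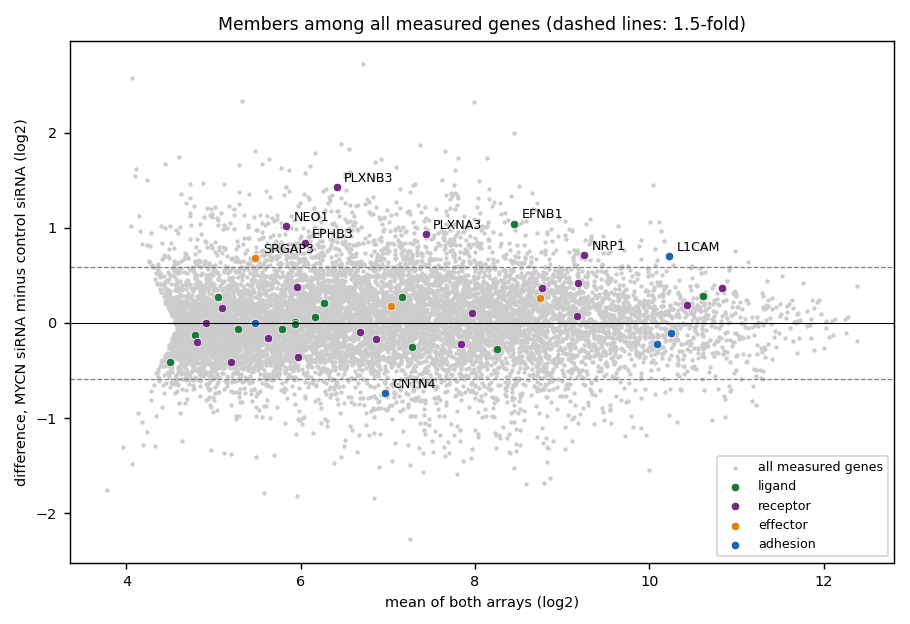
Difference (log2, vertical axis) against the mean of both arrays (log2, horizontal axis) for all 10592 measured genes (grey) and the guidance genes by role (coloured), with dashed lines at 1.5-fold. The 8 higher guidance genes lie above the upper line and CNTN4 below the lower one, among 933 and 613 genes of the whole table that do so.

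The 4 measured guidance genes on the X chromosome, EFNB1, PLXNB3, PLXNA3 and L1CAM, were all among the 8 that were at least 1.5-fold higher, a pattern looked at after the values were seen. The other 4 higher genes were NEO1, EPHB3, NRP1 and SRGAP3. Without the X-linked genes, 4 of the 41 left (9.76%) were past 1.5-fold upward, against 8.81% of all measured genes, and the median was 0.010. The X-linked genes were set apart because all 4 were high, so a lower share without them was fixed in advance. Whether the higher share has to do with the X chromosome was not tested. The 322 other measured X genes had a median of 0.08, with 11.2% past 1.5-fold upward and 5.90% downward. PLXNB3, L1CAM and PLXNA3 lie in the same stretch of the chromosome, in that order. Among the genes of the annotation between them and the 5 on either side, 21 other measured genes had a median of 0.16. RENBP, which encodes a renin-binding protein, had a difference of 0.92 and DNASE1L1, a DNase I relative, of 1.01, while DUSP9, a MAP kinase phosphatase, had one of −0.60. The other 18 lay inside 1.5-fold.

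**Figure D4:**
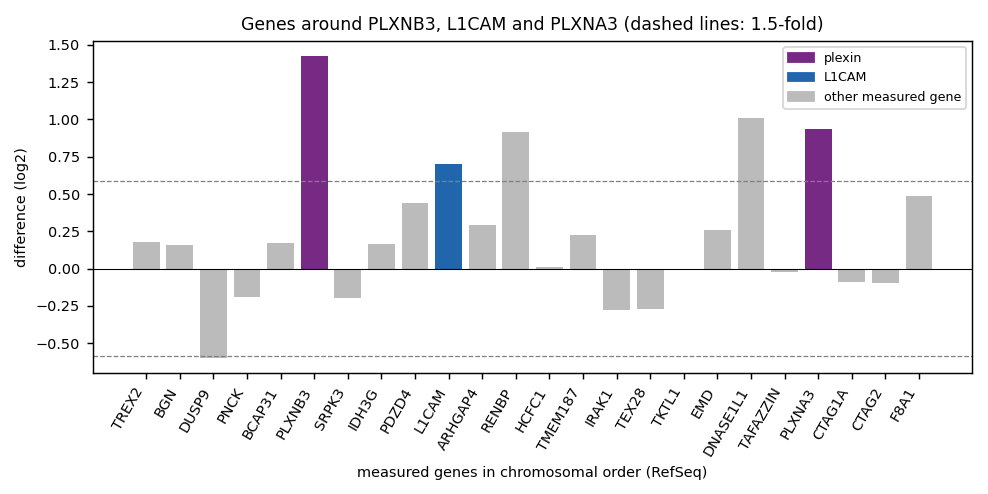
Difference (MYCN siRNA minus control siRNA, log2, vertical axis) of measured genes in chromosomal order (horizontal axis) around PLXNB3, L1CAM and PLXNA3, with dashed lines at 1.5-fold. The 3 guidance genes stand at 1.43, 0.70 and 0.93, RENBP and DNASE1L1 are the other bars above the upper line, and most neighbours lie inside both lines.

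Other genes of the pathway were read from 2 lists that hold none of the 61. Of the signalling effectors inside the cell, 56 were listed, 35 were in the table and 32 were measured. Of these, 24 were higher and 8 lower, with 5 at least 1.5-fold higher, 2 at least 1.5-fold lower and a median of 0.11. These are 15.6% and 6.25% of the list, against 8.81% and 5.79% of all measured genes. VAV2, a signalling protein used by Eph receptors, had a difference of 0.76 (8.24 to 9.0), the cofilin kinase LIMK2 of 0.73 and SSH3, of the phosphatase family that reverses its effect, also of 0.73. DPYSL3, a collapsin response mediator, had a difference of −0.82 (9.50 to 8.68), ARHGEF12, bound by B-type plexins, of −0.77, and NGEF, bound by EphA receptors, of −0.44. The receptor PLXNB3 and the plexin effector ARHGEF12 thus lay on opposite sides of the control, but both were named as extremes. ARHGEF11, on the same list, was at 7.91 and 7.92 (0.01). Of 35 listed partners and cofactors on the cell surface, 27 were in the table and 19 measured. Of the measured ones 15 (78.9%) were higher, again against 50.9% of all measured genes, and 4 lower, with a median of 0.28. Past 1.5-fold the partners were balanced, 2 higher and 2 lower (10.5% each), against 8.81% and 5.79% of all measured genes. MDGA1, a GPI-anchored immunoglobulin protein, had a difference of 1.25 (6.12 to 7.37), NFASC, the L1 family relative neurofascin, of 1.09 and the adhesion molecule ALCAM of 0.55. SDC1, a heparan sulphate proteoglycan, had a difference of −0.90 (7.62 to 6.72), FLRT3, a ligand of UNC5 receptors, of −0.73 and LRRC4, a partner of netrin-Gs, of −0.38. In comparison, 11 of the 30 measured cadherins and protocadherins (36.7%), another family of neural surface proteins, were at least 1.5-fold higher and none 1.5-fold lower. The shares of all measured genes were 8.81% and 5.79%, and 17.8% of the guidance genes were at least 1.5-fold higher. The cadherin and protocadherin median was 0.35. The difference between that family and the guidance genes was not tested.

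The cells carried adrenergic neuroblastoma markers, and also the mesenchymal markers SNAI2 and TWIST1 (7.82 in both arrays). The other mesenchymal markers in the table lay near or below the array medians. PRRX1 was at 4.86 and 4.35, FN1 at 4.79 and 5.02, and YAP1 lower still. By median difference the mesenchymal, Schwann, and endothelial and epithelial lists lay lower, while the haematopoietic list, with 2 measured genes, lay higher (0.68). Of the 11 adrenergic markers listed, 9 were in the table and all were measured, from TH (6.47 and 6.53) to GATA2 (10.7 and 11.0) by mean level. In the MYCN siRNA array 7 of them were higher and 2 lower, with a median difference of 0.12. DBH, the enzyme that makes noradrenaline, was the 1 adrenergic marker past 2-fold, at 9.32 and 10.8, a difference of 1.45. Of the mesenchymal markers, 4 of 5 in the table were measured, 1 higher, 2 lower and 1 equal, with a median difference of −0.17. By mean level that list ran from YAP1 (3.73 and 3.88) to SNAI2 (11.2 and 10.8), and its lowest difference was −0.51 in PRRX1. All 4 Schwann markers were measured, with a median difference of −0.12: S100B was higher (5.90 and 6.92, 1.02), SOX10 (−0.28) and MBP (−0.23) were lower and ERBB3 was equal. Of the haematopoietic markers, CD68 was higher (7.27 and 9.0, 1.74), CSF1R was lower (4.64 and 4.26, −0.38) and CD14 was not measured (4.02 in both). All 3 measured endothelial and epithelial markers were lower, with differences of −0.65 in KDR, −0.38 in KRT18 (6.04 and 5.66) and −0.06 in KRT8, and EPCAM (3.96 and 3.83) was not measured. DBH, S100B and CD68 were thus the markers past 2-fold, without the rest of their lists, and their part in the result was not tested. These and the other markers outside each list's extremes were named after their values were seen. How far MYCN itself was lowered was not analysed here. Fewer cells of a type and less RNA per cell cannot be told apart in such bulk samples.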

How the data were processed

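RNA of 2 samples was hybridised to 1-colour arrays, 100 ng each, per the labels' protocols. The deposited log2 values, 1 for each probe set, come from RMA per the submitters' processing notes. Its settings and software were not given in the sources used here. RMA as usually run equalises the arrays' distributions, so a shift in total RNA per cell cannot be seen. The control sample is titled as a reanalysis, without explanation.

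Of 46255 probe sets, 15835 had 1 gene symbol and 30420 none. Where a gene had several probe sets, their mean was used (Python 3.11.15, pandas 2.3.3). Gene identifiers (14812 of 14812 matched) gave gene types and order through RefSeq GRCh38.p14. No test was possible with 1 array per group, so counts past 1.5-fold and 2-fold and medians are given beside those of all measured genes. The scripts were tested on simulated data. Alternatives were median centring, quantile, loess (statsmodels 0.14.6, span 0.3), brightest probe set, 3 other filters, an offset of 16, and other sets of ligands and receptors. Named are all measured members past 1.5-fold, the extremes of each family, the other measured members of small families, and the 3 highest and 3 lowest genes of the pathway lists. ARHGEF11 was added after the values were seen. Members and lists were chosen with earlier results of these data known.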

Additional observations from a re-analysis of the deposited data

How the results depend on the processing

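All 24 members followed through the alternatives for scaling, probe sets, filters and offset kept their differences within 0.31 of the value as deposited (186 values). Many of these values could not move. A filter does not change a gene's difference, the brightest probe set can change only SRGAP1, and median centring shifts all genes alike. Only quantile, loess and the offset could move single genes apart. The 9 members past 1.5-fold stayed past it wherever they were measured, except SRGAP3, which was 0.50 with the offset of 16 and was dropped by the 70th percentile filter. The count past 2-fold was 1 with the offset and, in an alternative added after the data were seen, 1 without the 4 members on the X chromosome. Without these the count past 1.5-fold was 4 and the median of the members 0.010. That median, 0.07 as deposited, was 0.12 after median centring, when the median of all measured genes was 0.06, and 0.00 without a filter and 0.19 with the 70th percentile filter, which keeps 31 members. With that filter the receptor median was 0.37, the ligand median lay below it by 0.31 (−0.31), and the median of the partners and cofactors was 0.42, or 0.40 with the brightest probe set. Without Eph receptors, but with the ephrins kept among the ligands, the receptor median was also 0.37 and the ligand median minus the receptor median −0.37. The ligand median lay below the receptor median under all 12 alternatives run for that comparison, from −0.09 to −0.37. Several of these could not narrow the gap. Median centring shifts both roles alike, and the brightest probe set changes only SRGAP1, which has neither role. Leaving out the Eph receptors, with their lower median, could only widen it. The sign of the ligand median itself turned with median centring (0.05), loess (0.02), the 70th percentile filter (0.06) and a filter on the mean of both arrays (0.010). The share of measured members' windows with CACGTG was 2.00%, and with the variant CACGCG 18.0%. The alternatives without semaphorins were not run, since no probe set is named as one here, and no replicate could be left out. Values near the array medians are limited by background, and the spread between cultures was not measured.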
